A study of Homo sapiens with 30 samples.

Results

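The 48 genes described here encode proteins that hepatocytes release into plasma: 12 clotting factors, 7 anticoagulants and proteins of fibrinolysis, 9 complement proteins, 12 acute phase proteins, and 8 carriers and chains of the inter-alpha-trypsin inhibitor. They were taken by gene symbol, from a list drawn up with earlier results of these data known, and all 48 were found among the 60107 genes of the count table. The cells were HepG2, an established human liver cancer line, so the levels are those of 1 tumour line in culture and not of normal hepatocytes or of plasma. Cultures were transfected with Lipofectamine RNAiMAX and, by the sample labels 24 h later, received Sorafenib at 10 µM, a multikinase inhibitor used in advanced hepatocellular carcinoma, or its solvent dimethyl sulfoxide (DMSO). In the 6 h experiment the cells carried an inhibitor control (IC) or an inhibitor of miR-200c-3p (I200c). For the 24 h experiment the transfection was with the control of the mimics (MC), with miR-222-5p mimic (M222) or with miR-512-3p mimic (M512). Each of the 5 transfections was measured with DMSO and with Sorafenib in 3 libraries, which gives 10 groups and 30 libraries of 3′ end messenger RNA counts. The replicates of a group are described by the study as independent, with no word on what was repeated, and the p-values below measure the spread between them.

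Clotting proceeds through a cascade of proteases that ends when thrombin cuts soluble fibrinogen into fibrin, and serpins such as antithrombin hold that cascade back while plasmin dissolves the clot. Complement is a second plasma cascade, which marks and lyses microbes. The liver makes most of these proteins, and during inflammation interleukin 6 and interleukin 1 raise the positive acute phase proteins, among them fibrinogen, haptoglobin and serum amyloid A, while transthyretin and other negative acute phase proteins go down.

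The oligonucleotides imitate or block 3 miRNAs, whose mature sequences (RefSeq, GRCh38.p14) are shown because the seed, bases 2 to 8 from the 5′ end and here in capitals, is what pairs with a target.
hsa-miR-200c-3p: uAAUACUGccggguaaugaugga
hsa-miR-222-5p: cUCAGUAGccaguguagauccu
hsa-miR-512-3p: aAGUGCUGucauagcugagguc
The 3 seeds differ from each other. In DNA letters the seed of miR-200c-3p pairs with CAGTATT. That of miR-222-5p pairs with CTACTGA, and the miR-512-3p seed with CAGCACT. These sites were searched in the 3′ untranslated region (UTR) of each gene's canonical transcript in GENCODE release 44. None of the 48 members held any of the 3 sites. Over all 19217 genes with such a region, the first site was in 16.2%, the second in 9.25% and the third in 19.7%. The regions of the members were short, with a median of 304.5 bases against 1066 bases over all genes. This is a description of letters in 1 transcript per gene, and other transcripts or other kinds of site were not searched.

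Libraries held 3938764 to 9657063 counts (median 6460786), and the 48 members together took 0.42% to 0.71% of them. Genes with a count ran from 13252 in M222_sorafenib replicate 1 to 16812 in IC_DMSO replicate 1, and deeper libraries did not always hold more. MC_sorafenib replicate 1 had 7585221 counts over 13394 genes, and MC_sorafenib replicate 2 had 4939876 over 16132. What this number of genes does to the results below was not tested. For a gene with no count the upper limit is 0.311 to 0.762 CPM, the count scaled to a common library total, with 3 counts as the upper limit and for counting error only. Levels below are CPM scaled by the trimmed mean of M values (TMM) over all 30 libraries. Of the 6 hepatocyte and HepG2 markers looked up (ALB, APOA1, APOB, HNF4A, AFP and GPC3), all were counted in every group, whereas the T cell gene CD3E, the endothelial genes VWF and KDR and the stromal genes DCN and LUM had 0 counts in all libraries. LYZ, also a leukocyte gene, was counted, and the 5 leukocyte markers summed to 102.6 to 307.5 CPM. The endothelial genes PECAM1 and CDH5 and the stromal genes PDGFRB and COL1A1 also held counts. The 4 endothelial markers summed to 0 to 3.015 CPM and the 4 stromal ones to 0 to 13.57 CPM. The 4 bile duct markers (KRT7, KRT19, EPCAM and SOX9) were counted too and summed to 495.5 to 899.9 CPM. The summed level of the hepatocyte markers was 10370 to 15660 CPM in the 9 DMSO libraries of 24 h and 6292 to 9884 CPM in the 9 Sorafenib libraries. Of the 6, ALB, APOB, HNF4A, AFP and GPC3 were called lower there, and so were LYZ (-0.35) and the bile duct genes KRT19 (-0.38) and SOX9 (-0.73, log2 fold change). Their part in the results below was not tested. The mitochondrial share of counts was 19.7% to 23.7% with DMSO and 17.5% to 24.2% with Sorafenib at 24 h. At 6 h it was 18.2% to 26.8% with DMSO, highest in I200c_DMSO replicate 2, and 19.2% to 20.3% with Sorafenib.

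Most members were measurable, but some of the best known acute phase genes were not. F9, CRP and SAA1 had 0 counts in all 30 libraries, while PLG had 3, C4A 6, LBP 10, C9 12 and SAA2 16. These 8 could not be tested, nor could ITIH4 with 84 counts in all. F13B and ITIH1 passed the filter on low counts only at 24 h and, for ITIH1, in the fit of the transfection controls. The tests therefore covered 37 members at 6 h and 39 at 24 h, and 38 where the controls were compared. SAA1 and SAA2, C4A and C4B, ORM1 and ORM2, and HP and HPR are near-identical pairs, so reads may be split or lost between the members of a pair.

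The member with the highest mean level of each class is given first. These 3′ libraries give about 1 fragment per transcript, so CPM is not divided by length. F2, prothrombin, had group means of 279 to 385 CPM. SERPINA5, the protein C inhibitor, had 245 to 363. C3, on which all complement pathways converge, had 315 to 570.3. Among the acute phase genes SERPINA1, the inhibitor of neutrophil elastase, stood first with 566 to 805 CPM. Its highest mean, in I200c with DMSO, rests on replicate 2 (671, 1186 and 558 CPM). AHSG, the carrier fetuin-A, was the highest of all members with 1071 to 1923 CPM.

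After 24 h of Sorafenib a large share of these genes was lower, among them FGA, F7, KNG1 and the antiplasmin gene SERPINF2, while both orosomucoid genes were higher. Over the mean of the MC, M222 and M512 contrasts, 19 of the 39 members tested were called lower (48.7%) and 2 higher (5.13%), by the quasi-likelihood F test of edgeR with Benjamini-Hochberg adjusted p under 0.05. Over all 13244 genes of the same fit, 12.4% were called lower and 13.4% higher. The median log2 fold change of the members was -0.35, against -0.04 over all genes tested. By class, 7 of 11 clotting factors, 4 of 6 anticoagulant and fibrinolysis genes, 2 of 7 complement genes, 3 of 8 acute phase genes and 3 of 7 carriers and inter-alpha-trypsin inhibitor chains were called lower. Both higher calls were acute phase genes. The lower calls, and those of the carriers and chains, include ITIH1, which passed the filter on low counts only through its DMSO libraries and so lends these counts no support. Fewer cells and less RNA per cell cannot be told apart in such bulk samples, and the changes are relative to the TMM scale. When libraries were scaled by their totals instead, all genes had a median of -0.17, the share of all called genes that were lower went from 47.9% to 67.2%, and the members stood at 22 lower and 0 higher. HP and SERPINC1 are named in the text of the study, SERPINC1 as reduced after the miR-222-5p mimic. HP is named there among genes lowered with the miR-512-3p mimic and not in its transfection control. Both were thus named for a mimic and not for the mean of the 3 transfections. Against MC, edgeR called neither gene for its mimic with either treatment. With DMSO, HP was at 20.9, 28.9 and 41.8 CPM in M512 and at 17.3, 21.6 and 11.9 in MC. With Sorafenib it was at 7.18, 18.9 and 6.71 CPM in M512 and at 16.1, 15.8 and 11.1 in MC. SERPINC1 in M222 overlapped with MC under DMSO and lay below MC under Sorafenib. The study drew its genes from these same libraries, so the calls of HP and SERPINC1 are not independent evidence.

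**Figure D1:**
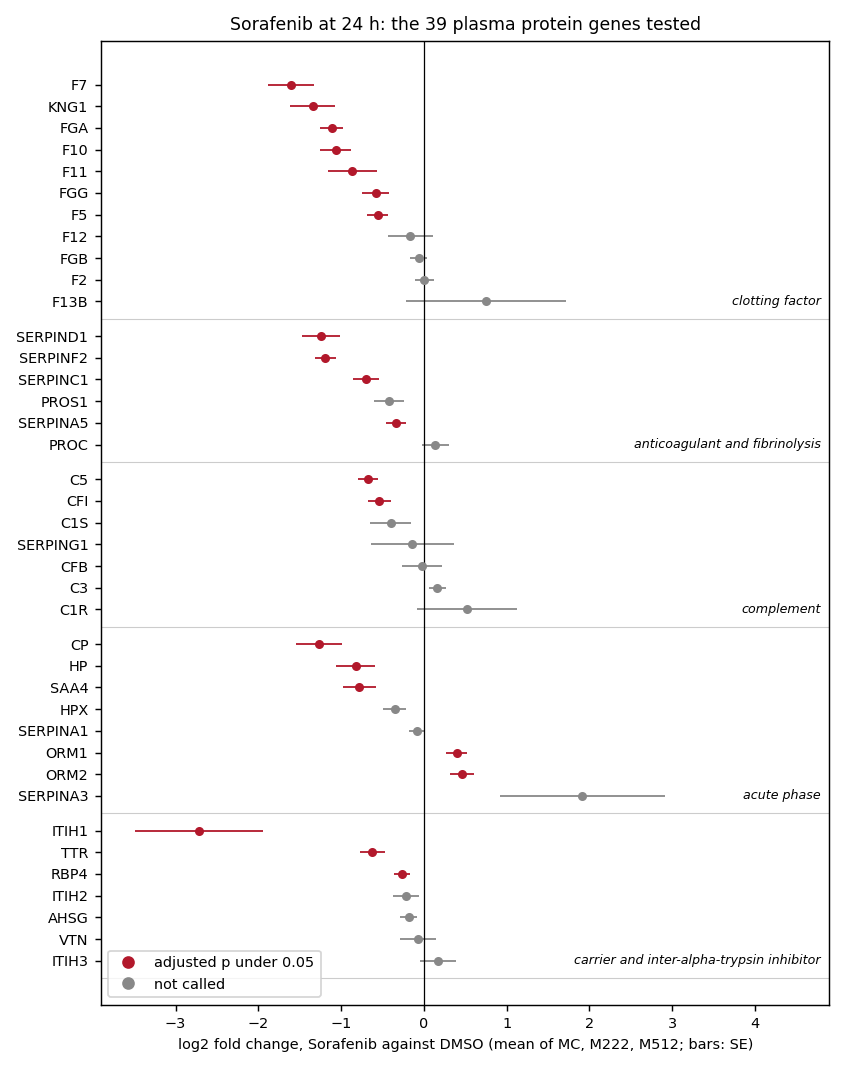
Log2 fold change of Sorafenib against DMSO at 24 h for the 39 members tested, as the mean of the MC, M222 and M512 contrasts, with bars of 1 SE and red for an adjusted p under 0.05. By class from top to bottom, the red points lie left of 0 for 19 genes, from ITIH1 at -2.71 to RBP4 at -0.27, and right of 0 for ORM1 (0.39) and ORM2 (0.46).

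Among the clotting factors, F7 (ENSG00000057593, chr13:113105788-113120685, plus strand on GRCh38), which with tissue factor starts the extrinsic pathway, fell most. With DMSO, F7 was at 21.4, 15.5 and 18.4 CPM in MC, 9.58, 11.1 and 5.55 in M222 and 21.7, 20.4 and 16.5 in M512. With Sorafenib, F7 was at 1.25, 5.78 and 6.04 CPM in MC, 3.86, 5.89 and 1.55 in M222 and 4.66, 8.93 and 7.7 in M512. In MC and in M512 every Sorafenib library lay below every DMSO library, and in M222 the groups overlapped. The mean fall was 1.60 on the log2 scale (SE 0.28, edgeR adjusted p 0.000184), a level 3.04 times lower. Its neighbour F10 (chr13:113122799-113149529), the factor that F7 activates, also fell (log2 fold change -1.07, SE 0.19, edgeR adjusted p 0.000196), from 27.9 to 55.1 CPM over the 9 DMSO libraries to 6.95 to 30.5 CPM over the 9 with Sorafenib.

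KNG1 (ENSG00000113889, chr3:186717348-186744410, plus strand), which encodes the kininogen of the contact system, came next. With DMSO, KNG1 was at 14.9, 13.3 and 18.6 CPM in MC, 2.29, 3.62 and 5.89 in M222 and 10.3, 12.97 and 8.02 in M512. With Sorafenib, KNG1 was at 4.43, 3.99 and 4.57 CPM in MC, 2.7, 3.63 and 2.06 in M222 and 2.33, 4.67 and 2.98 in M512. The DMSO levels of MC and M512 stood apart from all other 24 h groups, and in M222 the ranges with and without the drug overlapped. Over the 3 transfections the log2 fold change was -1.34 (SE 0.27, edgeR adjusted p 0.000691).

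The 3 genes of fibrinogen lie side by side on chromosome 4, and FGA and FGG were called lower while FGB was not. The difference between the genes was not tested. FGA (ENSG00000171560, chr4:154583126-154590742, minus strand) encodes the alpha chain. With DMSO, FGA was at 484, 348 and 469 CPM in MC, 311, 258 and 306 in M222 and 288, 254 and 251 in M512. With Sorafenib, FGA was at 153, 213 and 126 CPM in MC, 157, 148 and 106 in M222 and 133, 219.5 and 102 in M512. All 9 Sorafenib libraries, at 102 to 219.5 CPM, lay below all 9 DMSO libraries, at 251 to 484 CPM. The fall was called in each transfection, with -1.40 for MC, -1.09 for M222 and -0.84 for M512 (edgeR adjusted p 0.0015, 0.00904 and 0.0255), and over the mean it was -1.11 (SE 0.14, edgeR adjusted p 2.46e-06). FGG (ENSG00000171557, chr4:154604134-154612967, minus strand), the gamma chain, was called over the mean (log2 fold change -0.58, SE 0.16, edgeR adjusted p 0.0097) and in no single transfection.

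FGB (ENSG00000171564, chr4:154563011-154572807, plus strand), the beta chain, was not called, with a log2 fold change of -0.06 (SE 0.10, edgeR adjusted p 0.696). With DMSO, FGB was at 258, 258 and 287 CPM in MC, 169, 209 and 146 in M222 and 124, 137 and 136 in M512. With Sorafenib, FGB was at 187, 198 and 201 CPM in MC, 185, 183 and 135 in M222 and 165, 185 and 158 in M512. Its Sorafenib levels lay below those with DMSO in MC, overlapped with them in M222 and lay above them in M512. The ratio of FGA to FGB counts summarises the pair. With DMSO at 24 h it averaged 1.62 ± 0.263 in MC, 1.72 ± 0.445 in M222 and 2.01 ± 0.276 in M512 (SD, n = 3). With Sorafenib it averaged 0.839 ± 0.225, 0.813 ± 0.0345 and 0.881 ± 0.277 in the same order, and the highest Sorafenib library (1.19) lay under the lowest DMSO library (1.23). At 6 h the 4 group means of the ratio were 1.01 to 1.12. The ratio was chosen after its values were seen and is given as a description, with no test.

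The promoters of the 3 fibrinogen genes (RefSeq, GRCh38.p14, 250 bases before to 50 after the start, written 5′ to 3′ on the strand of the gene) are shown because the genes share a locus and regulation by interleukin 6. Capitals mark CTGGGA, the core of the interleukin 6 response element described for these genes, or its complement TCCCAG.
FGA, chr4:154590693-154590992, minus strand: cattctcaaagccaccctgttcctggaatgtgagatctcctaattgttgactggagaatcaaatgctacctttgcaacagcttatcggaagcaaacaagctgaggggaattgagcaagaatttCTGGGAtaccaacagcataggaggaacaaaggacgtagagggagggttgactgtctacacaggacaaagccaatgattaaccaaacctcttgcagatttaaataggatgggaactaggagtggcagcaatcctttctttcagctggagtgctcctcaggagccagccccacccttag
FGB, chr4:154562730-154563029, plus strand: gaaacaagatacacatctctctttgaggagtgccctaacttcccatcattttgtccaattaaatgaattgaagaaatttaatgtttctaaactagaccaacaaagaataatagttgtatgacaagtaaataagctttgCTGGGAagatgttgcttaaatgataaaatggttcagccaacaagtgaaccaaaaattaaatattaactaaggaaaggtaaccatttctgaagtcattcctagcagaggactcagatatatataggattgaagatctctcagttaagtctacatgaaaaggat
FGG, chr4:154612607-154612906, minus strand: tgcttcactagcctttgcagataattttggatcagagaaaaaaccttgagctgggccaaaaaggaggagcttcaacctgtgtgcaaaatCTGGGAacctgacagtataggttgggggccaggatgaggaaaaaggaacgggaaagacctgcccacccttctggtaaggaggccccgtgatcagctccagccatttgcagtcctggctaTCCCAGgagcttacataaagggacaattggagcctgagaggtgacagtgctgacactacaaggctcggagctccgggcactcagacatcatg
Where a gene has several starts the one lowest in the genome was used, which among these concerns FGB with 2. CTGGGA was found on either strand once in FGA, once in FGB and at 2 places in FGG, so that the letters do not separate FGB from the others. It was in 15 of the 34 member promoters at hand (44.1%) and in 33.5% of all 27305 promoters. GTTAAT, part of the HNF1 motif, was in 11 of the 34 (32.4%) and in 7.07% of all, with a match in FGA and FGB and not in FGG. TTCNNNGAA, the STAT motif, was in 10 of the 34 (29.4%) and in 7.94% of all. Both strands were searched for each motif, CTGGGA and TTCNNNGAA can overlap, and a match is not evidence of binding. The other 14 members have no promoter sequence here.

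**Figure D2:**
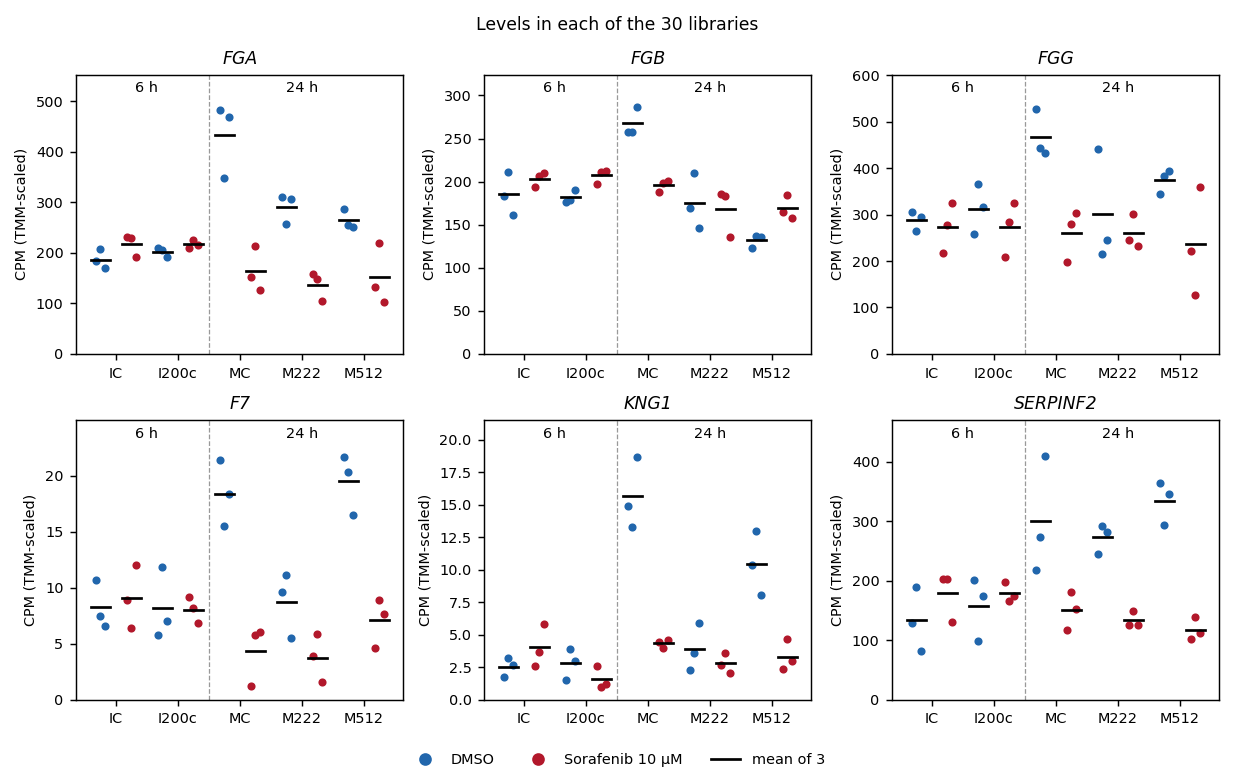
Level (TMM-scaled CPM) of FGA, FGB, FGG, F7, KNG1 and SERPINF2 in each of the 30 libraries by transfection, with DMSO in blue, Sorafenib in red and a line at the mean of 3. At 24 h the red points of FGA (102 to 219.5 CPM) and SERPINF2 (102.5 to 181 CPM) lie below all blue ones, while those of FGB do so only in MC.

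Of the other clotting factors, F5, the cofactor of factor Xa, fell (log2 fold change -0.56, SE 0.13, edgeR adjusted p 0.00206), and so did F11, a protease of the intrinsic pathway (log2 fold change -0.86, SE 0.29, edgeR adjusted p 0.0312). The call of F11 was lost in 7 of the 18 fits that left out a library, with the highest adjusted p (0.0821) without MC_DMSO replicate 3. F2, F12 and F13B were not called, at 0.01, -0.16 and 0.75 on the log2 scale. For F2 the SE was 0.12, and its 18 libraries spread from 194 to 362 CPM with both treatments.

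Of the anticoagulant and fibrinolysis genes SERPINF2, SERPIND1, SERPINC1 and SERPINA5 were called lower, and PROS1 and PROC were not called. SERPINF2 (ENSG00000167711, chr17:1742836-1755265, plus strand), alpha-2-antiplasmin, which protects the clot from plasmin, had the lowest adjusted p of all members. With DMSO, SERPINF2 was at 217, 274 and 410.1 CPM in MC, 244, 292 and 282 in M222 and 363, 293 and 346 in M512. With Sorafenib, SERPINF2 was at 117, 181 and 152 CPM in MC, 126, 149 and 126 in M222 and 102, 139 and 112 in M512. No Sorafenib library, at 102.5 to 181 CPM, reached the lowest DMSO library, at 217 CPM. The call was made in MC (-0.998) as well as in M222 (-1.03) and M512 (-1.54), and over the mean it changed by -1.19 (SE 0.12, edgeR adjusted p 1.51e-07).

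SERPIND1, heparin cofactor II, which inhibits thrombin, fell with a wider spread (log2 fold change -1.24, SE 0.23, edgeR adjusted p 0.000289). With DMSO, SERPIND1 was at 56.4, 72.9 and 84.7 CPM in MC, 84.5, 98.5 and 115 in M222 and 84.7, 77.8 and 82.2 in M512. With Sorafenib, SERPIND1 was at 9.13, 58.4 and 16.9 CPM in MC, 31.6, 54.4 and 26.5 in M222 and 42.7, 51.3 and 36.1 in M512. MC_sorafenib replicate 1 was the lowest at 9.13 CPM and MC_sorafenib replicate 2 the highest of the drug group at 58.4, within the DMSO range of MC.

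SERPINC1 (ENSG00000117601, chr1:173903800-173917327, minus strand), antithrombin, was called lower over the mean (log2 fold change -0.70, SE 0.16, edgeR adjusted p 0.00191) and in M512 (-0.95, edgeR adjusted p 0.0265). With DMSO, SERPINC1 was at 61.9, 55.0 and 46.8 CPM in MC, 56.2, 43.0 and 51.1 in M222 and 65.6, 51.9 and 65.4 in M512. With Sorafenib, SERPINC1 was at 65.6, 33.3 and 42.0 CPM in MC, 15.7, 32.4 and 31.3 in M222 and 34.4, 29.4 and 33.0 in M512. In M222 and M512 the drug group lay below the DMSO group, whereas in MC the groups overlapped, with MC_sorafenib replicate 1 at 65.6 CPM. SERPINA5 was called with a small change (log2 fold change -0.34, SE 0.12, edgeR adjusted p 0.0468) that was lost in 16 of the 18 fits without a library, up to an adjusted p of 0.178 without M222_DMSO replicate 3. PROS1, protein S, was at -0.42 (edgeR adjusted p 0.0948), and PROC, protein C, at 0.14 (edgeR adjusted p 0.567).

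Of the complement genes 2 of 7 were called, both lower. C5, whose cleavage starts the terminal pathway, fell (log2 fold change -0.68, SE 0.12, edgeR adjusted p 0.000284). With DMSO, C5 was at 88.0, 82.6 and 78.7 CPM in MC, 61.7, 74.3 and 62.1 in M222 and 76.7, 74.6 and 69.1 in M512. With Sorafenib, C5 was at 47.7, 63.4 and 45.0 CPM in MC, 44.04, 55.3 and 41.9 in M222 and 38.2, 54.8 and 31.4 in M512. In all 3 transfections the Sorafenib libraries lay below the DMSO libraries of the same transfection. CFI, the protease that inactivates C3b and C4b, also fell (log2 fold change -0.54, SE 0.14, edgeR adjusted p 0.00555). With DMSO, CFI was at 131, 125 and 115 CPM in MC, 195, 129.7 and 149 in M222 and 94.0, 109 and 134 in M512. With Sorafenib, CFI was at 43.6, 95.9 and 57.8 CPM in MC, 134, 134 and 106 in M222 and 93.7, 71.8 and 103 in M512. The groups were apart in MC, where the call was made (-0.91, edgeR adjusted p 0.041), and overlapped in M222 and M512. C1R, C1S, CFB, SERPING1 and C3 were not called, and C3 had a log2 fold change of 0.17 (SE 0.10).

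The acute phase genes split in direction. CP (ENSG00000047457, chr3:149162410-149221829, minus strand), the copper-carrying ferroxidase ceruloplasmin, fell most (log2 fold change -1.26, SE 0.28, edgeR adjusted p 0.00152). With DMSO, CP was at 17.3, 36.1 and 32.9 CPM in MC, 30.4, 35.5 and 15.2 in M222 and 28.7, 52.6 and 64.3 in M512. With Sorafenib, CP was at 9.41, 31.7 and 11.5 CPM in MC, 14.9, 25.4 and 5.33 in M222 and 8.73, 14.0 and 9.06 in M512. In M512 the drug group, at 8.73 to 14.0 CPM, lay under a DMSO group of 28.7 to 64.3 CPM, and only there was CP called on its own (-2.23, edgeR adjusted p 0.00445). The difference between M512 and MC was not called (-1.52, edgeR adjusted p 0.965).

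HP (ENSG00000257017, chr16:72054505-72061055, plus strand), haptoglobin, which binds free haemoglobin, fell as well (log2 fold change -0.82, SE 0.24, edgeR adjusted p 0.0118). With DMSO, HP was at 17.3, 21.6 and 11.9 CPM in MC, 13.2, 26.3 and 10.6 in M222 and 20.9, 28.9 and 41.8 in M512. With Sorafenib, HP was at 16.1, 15.8 and 11.1 CPM in MC, 9.53, 12.5 and 8.76 in M222 and 7.18, 18.9 and 6.71 in M512. The ranges overlapped in MC and M222, while in M512 all 3 drug libraries were lower. SAA4, a serum amyloid A gene expressed without inflammation, followed (log2 fold change -0.78, SE 0.20, edgeR adjusted p 0.00565). With DMSO, SAA4 was at 40.9, 31.7 and 47.4 CPM in MC, 41.2, 33.5 and 39.2 in M222 and 24.0, 22.3 and 19.98 in M512. With Sorafenib, SAA4 was at 20.2, 33.1 and 24.8 CPM in MC, 19.1, 21.1 and 8.93 in M222 and 15.9, 25.4 and 7.45 in M512. Only in M222 were its groups apart, and only M222 was called on its own (edgeR adjusted p 0.0449).

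ORM1 and ORM2 (ENSG00000229314, chr9:114323098-114326479, plus strand, and chr9:114329869-114333251), neighbouring genes of orosomucoid, which binds drugs in plasma, were the members that rose. With DMSO, ORM1 was at 103, 114 and 105 CPM in MC, 88.6, 122 and 76.1 in M222 and 76.7, 80.5 and 104 in M512. With Sorafenib, ORM1 was at 132, 140.0 and 139 CPM in MC, 115, 135 and 121 in M222 and 94.9, 168 and 105 in M512. The log2 fold change was 0.39 (SE 0.12, edgeR adjusted p 0.0193), and the groups were apart in MC. ORM2 changed by 0.46 (SE 0.15, edgeR adjusted p 0.0213). With library totals in place of TMM both calls were lost, at 0.26 for ORM1 (adjusted p 0.102) and 0.33 for ORM2 (0.0876), and without M512_DMSO replicate 1 the adjusted p was 0.0504 and 0.0567. SERPINA1 (-0.08, SE 0.10), HPX (-0.35, SE 0.14) and SERPINA3 (1.91, SE 1.00) were not called, and SERPINA3 held 278 counts in all.

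**Figure D3:**
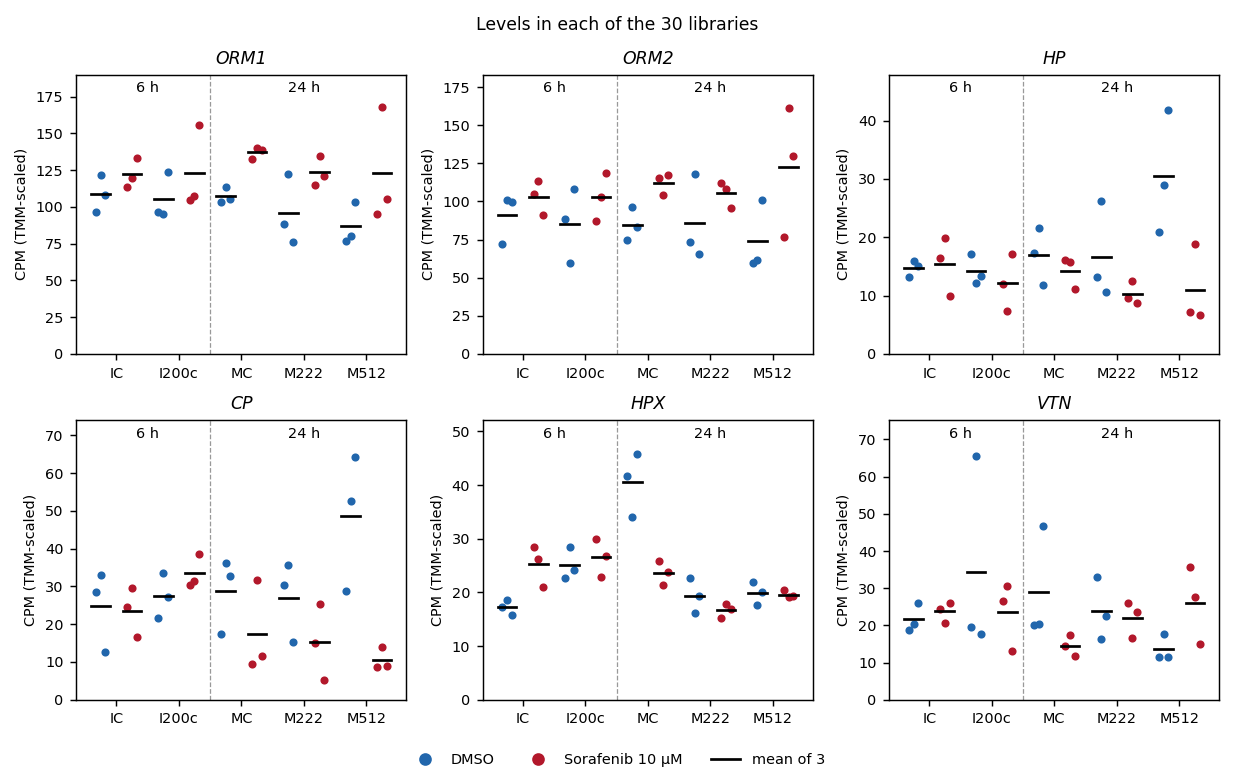
Level (TMM-scaled CPM) of ORM1, ORM2, HP, CP, HPX and VTN in each of the 30 libraries by transfection, with DMSO in blue, Sorafenib in red and a line at the mean of 3. CP and HP of M512 show blue points above all red ones, ORM1 of MC shows red points (132 to 140.0 CPM) above the blue ones, and HPX stands highest in MC with DMSO (34.1 to 45.8 CPM).

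Of the carriers and the inter-alpha-trypsin inhibitor chains, ITIH1, a heavy chain, had the lowest log2 fold change of all members (log2 fold change -2.71, SE 0.77, edgeR adjusted p 0.0115) and the fewest reads of those called, 226 over all libraries. With DMSO, ITIH1 was at 2.02, 1.94 and 3.52 CPM in MC, 2.83, 1.81 and 6.41 in M222 and 0.738, 0.754 and 2.25 in M512. With Sorafenib, ITIH1 was at 0, 1.2 and 0.295 CPM in MC, 0, 0.453 and 0.172 in M222 and 0, 1.01 and 0.248 in M512. Drug libraries were at 0 to 1.20 CPM, close to the limit that a count of 0 allows, and its groups overlapped in M512. ITIH1 passed the filter only through the DMSO libraries, so its fall is no independent result and its fitted size depends on the prior count. TTR, transthyretin, which carries thyroxine and retinol-binding protein, fell (log2 fold change -0.62, SE 0.15, edgeR adjusted p 0.00431). With DMSO, TTR was at 69.5, 84.0 and 107 CPM in MC, 50.9, 78.6 and 60.1 in M222 and 54.9, 65.7 and 62.5 in M512. With Sorafenib, TTR was at 32.9, 58.6 and 46.9 CPM in MC, 49.3, 52.4 and 38.5 in M222 and 26.0, 61.9 and 44.2 in M512. The TTR groups were apart in MC and overlapped in the others.

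RBP4, the retinol carrier, showed the smallest called fall (log2 fold change -0.27, SE 0.09, edgeR adjusted p 0.0383). With DMSO, RBP4 was at 451, 465 and 448 CPM in MC, 439.7, 493 and 472 in M222 and 672, 538 and 531 in M512. With Sorafenib, RBP4 was at 397, 455 and 402 CPM in MC, 378, 423 and 398 in M222 and 385, 508 and 413 in M512. In M222 and M512 the groups were apart. Its call was lost in 15 of the 18 fits without a library, up to an adjusted p of 0.116 without MC_sorafenib replicate 3, and without a filter on low counts (adjusted p 0.142). ITIH2, ITIH3, VTN and AHSG were not called over the mean. AHSG was called in M512 alone (-0.58, edgeR adjusted p 0.0408), where its DMSO libraries were at 1876, 1680 and 2214 CPM and the drug libraries at 1213, 1626 and 1119 CPM.

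Within single transfections fewer members passed. In MC 5 of 39 were called lower (12.8%, where 0.793% of all genes were), namely F7, KNG1, SERPINF2, FGA and CFI, and the median of the members was -0.45. In M222 there were 6 (15.4%, against 1.56% of all genes), namely SERPIND1, F10, SAA4, SERPINF2, FGA and F5, with a median of -0.27. In M512 there were 9 (23.1%, against 4.62% of all genes), namely CP, F7, C5, KNG1, SERPINC1, AHSG, SERPINF2, FGA and HP, with a median of -0.41. FGA and SERPINF2 were called in all 3 transfections. No member was called higher in any of them by edgeR. These counts rest on few libraries: they ranged from 1 (without MC_DMSO replicate 3 or without MC_sorafenib replicate 1) to 7 (without MC_sorafenib replicate 2) in MC, from 1 (without M222_DMSO replicate 3 or without M222_sorafenib replicate 3) to 7 (without M222_sorafenib replicate 2) in M222 and from 4 (without M512_DMSO replicate 1, M512_DMSO replicate 2 or M512_sorafenib replicate 1) to 8 (without M512_sorafenib replicate 2) in M512. The calls that stood in all 6 fits were FGA in MC, SERPINF2 in M222, and SERPINF2 and CP in M512. FGA lost its call in 2 of the 6 fits in M222, up to an adjusted p of 0.092 without M222_sorafenib replicate 3, and in 5 of 6 in M512, up to 0.11 without M512_sorafenib replicate 3.

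**Figure D4:**
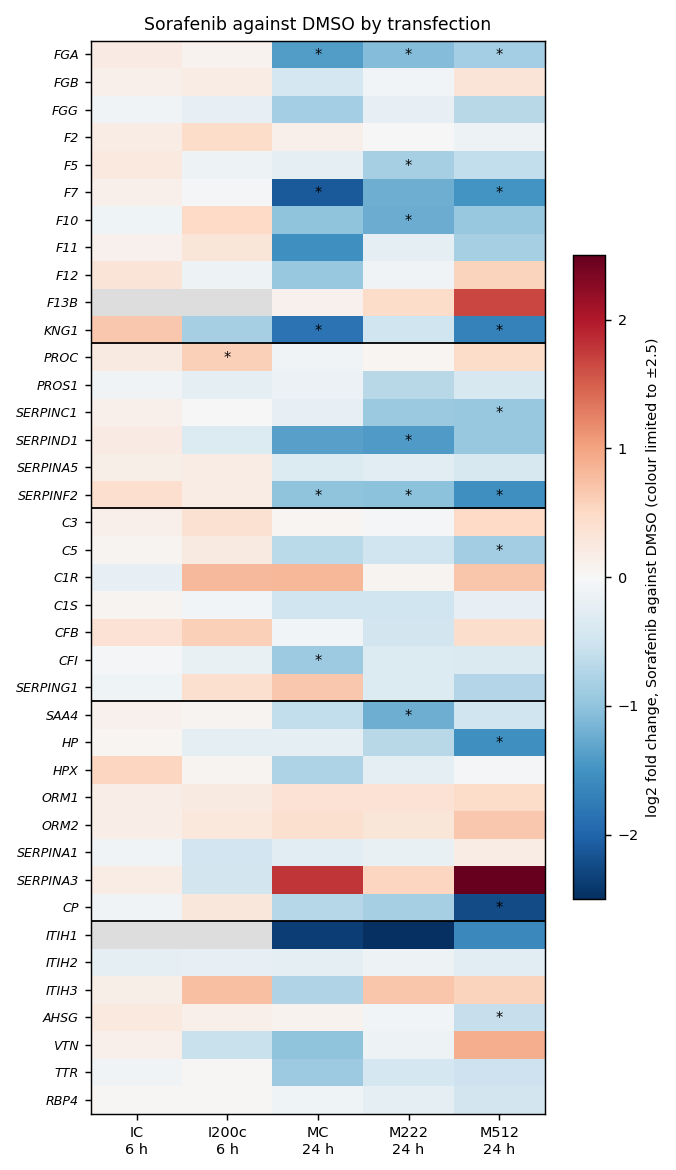
Log2 fold change of Sorafenib against DMSO in each transfection for the members tested, in the order of the classes, with blue for lower, red for higher, grey for not tested and a star for an adjusted p under 0.05. The 24 h columns hold 5 stars for MC, 6 for M222 and 9 for M512, and the 6 h columns hold 1, for PROC in I200c.

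At 6 h few members were called. In IC 0 of 37 members were called in either direction by edgeR, as 0.0393% of all genes were. At an unadjusted p under 0.05 was 1 member, beside 481 of all 12738 genes. In I200c 1 of 37 was called higher (2.7%, against 0.911% of all genes), and over the mean of IC and I200c it was again 1 (against 1.15% of all genes called higher). Both calls were PROC, protein C, the zymogen of an anticoagulant protease. In IC, PROC was at 63.7, 70.8 and 62.0 CPM with DMSO and 84.9, 77.4 and 67.8 with Sorafenib. In I200c it was at 59.0, 52.7 and 58.8 and 96.0, 84.3 and 79.6 CPM, and the groups did not overlap (log2 fold change 0.60, SE 0.15, edgeR adjusted p 0.0367). That call was lost in 5 of 6 fits without a library, up to an adjusted p of 0.148 without I200c_sorafenib replicate 1, and with library totals. The call over the mean was lost in 10 of 12 fits, up to 0.15 without IC_sorafenib replicate 1. The median over the members was 0.13 in IC, 0.07 in I200c and 0.11 over the mean, against 0.005 over all genes.

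FGA, which fell at 24 h, was at 187 ± 19.5 CPM in IC with DMSO and 218 ± 21.9 with Sorafenib (SD, n = 3), a log2 fold change of 0.21 (edgeR adjusted p 0.999). SERPINF2 was at 133 ± 53.8 and 179 ± 41.1 CPM (0.41, edgeR adjusted p 0.999). SERPINC1 changed by 0.07 and HP by -0.09 over the mean of 6 h, neither called.

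The oligonucleotides were compared with their controls within each treatment. For the inhibitor of miR-200c-3p, 0 of 37 were called against IC with DMSO (against 0.0157% of all genes) and 0 with Sorafenib (against 0% of all genes). At an unadjusted p under 0.05 were 2 and 1 members, beside 667 and 273 of all 12738 genes. DESeq2 also called 0 members in both, and 5 and 0 genes over all. For the mimic of miR-222-5p, edgeR called 0 of 39 against MC with DMSO and 0 with Sorafenib (0% of all genes in each). This does not show the members unchanged. At an unadjusted p under 0.05 were 8 and 6 of them, beside 737 and 800 of all 13244 genes. DESeq2 called 2 with DMSO and 0 with Sorafenib, and 33 and 24 genes over all. For the mimic of miR-512-3p, 2 of 39 were called with DMSO, both lower (5.13%, against 0.37% of all genes). There 11 members had an unadjusted p under 0.05, beside 1385 of all 13244 genes. DESeq2 called 2 members lower and 1 higher, beside 124 and 108 genes over all. With Sorafenib edgeR called 0 members (against 0.355% in either direction), and 7 had an unadjusted p under 0.05, beside 1465 of all genes. DESeq2 called 0 members there and 237 genes over all.

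The 2 genes lower in M512 than in MC were FGB and HPX, hemopexin, which binds free haem. FGB, whose library values are given above, averaged 268 ± 16.6 CPM in MC and 132 ± 7.54 in M512 with DMSO (log2 fold change -1.02, SE 0.18, edgeR adjusted p 0.00559), and 175 ± 32.2 in M222. The call was lost in 1 of 6 fits, without M512_DMSO replicate 1 (adjusted p 0.0591). With DMSO, HPX was at 41.8, 34.1 and 45.8 CPM in MC, 22.6, 16.1 and 19.4 in M222 and 22.0, 17.6 and 20.1 in M512. With Sorafenib, HPX was at 25.9, 21.3 and 23.9 CPM in MC, 15.2, 17.9 and 16.8 in M222 and 20.4, 19.1 and 19.2 in M512. Of these, the 3 MC libraries with DMSO stood above all others (log2 fold change -1.03, SE 0.24, edgeR adjusted p 0.0481). The call of HPX was lost in each of the 6 fits without a library, up to 0.275 without M512_DMSO replicate 2, and without a filter on low counts. Neither gene holds the site CAGCACT in the region searched.

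Whether an oligonucleotide changed the response to Sorafenib was tested as an interaction. No member was called for I200c (0% of all genes), M222 (0%) or M512 (0.00755%) by edgeR. At an unadjusted p under 0.05 were 1, 1 and 8 members, beside 413 of 12738 and 260 and 667 of 13244 genes. DESeq2 called 0 members for each, and 4, 1 and 15 genes over all. The member with the lowest p was VTN, vitronectin, an adhesion protein that also inhibits the terminal complement complex, in M512. VTN was at 20.1, 20.3 and 46.7 CPM in MC with DMSO and 14.5, 17.4 and 11.6 with Sorafenib. In M512 it was at 11.4, 17.8 and 11.5 and 35.7, 27.6 and 15.0, and the interaction had a log2 value of 1.91 (SE 0.53, unadjusted p 0.00133, edgeR adjusted p 0.609). It was singled out after its values were seen. FGB stood at 0.77 in the same test (edgeR adjusted p 0.834).

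The control transfections of the 2 experiments allow a comparison of times, in which time and the kind of control oligonucleotide cannot be told apart. With DMSO, 3 of 38 members were called higher in MC at 24 h than in IC at 6 h (7.89%, against 0.304% of all genes), and 0 lower. The median of the members was 0.42, against 0.02 over all genes. By edgeR 15 members had an unadjusted p under 0.05, beside 1973 of all 12500 genes. KNG1 had 1.75, 3.18 and 2.69 CPM in IC, far under its MC libraries (log2 fold change 2.65, SE 0.41, edgeR adjusted p 0.00685). FGA had 184, 208 and 169.5 CPM there (log2 fold change 1.24, SE 0.19, edgeR adjusted p 0.00685), and HPX had 17.3, 18.6 and 15.9 CPM (log2 fold change 1.26, SE 0.21, edgeR adjusted p 0.0138). All 3 were thus higher in MC than in IC without overlap. Without IC_DMSO replicate 3 the adjusted p of KNG1 and FGA was 0.0748 and that of HPX 0.134, and the count ranged from 0 (without IC_DMSO replicate 1 or replicate 3) to 7 (without MC_DMSO replicate 2).

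The response to Sorafenib was called different between the times for 1 of 38 members (2.63%, against 0.096% of all genes called lower). This was FGA, with an interaction of -1.64 on the log2 scale (SE 0.26, edgeR adjusted p 0.024): with DMSO it averaged 434 ± 74.3 CPM in MC and 187 ± 19.5 in IC, and with Sorafenib 164 ± 44.4 and 218 ± 21.9 (SD, n = 3). The call was lost in 8 of 12 fits without a library, up to an adjusted p of 0.0833 without IC_sorafenib replicate 1.

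Summed by class, the levels showed where the reads went. The 12 clotting factors together went from 1650 ± 82.3 to 1056 ± 112 CPM in MC. M222 had 1183 ± 56.7 CPM with DMSO and 932 ± 93.6 with the drug, and M512 had 1234 ± 21.9 and 947 ± 110.0 (SD, n = 3), with no overlap between the groups of a transfection. At 6 h they were at 1077 ± 45.2 and 1170 ± 63.7 CPM in IC. The 7 anticoagulant and fibrinolysis genes were at 879.6 ± 167 and 595 ± 65.2 CPM in MC and at 906 ± 75.9 and 569 ± 111 in M512. The complement sum, led by C3, was at 683 ± 50.7 and 606 ± 26.3 CPM in MC and at 525 ± 0.708 and 616 ± 113 in M512. In M512 the Sorafenib libraries were at 528.0, 743.2 and 575.2 CPM and those with DMSO at 524.8, 526.2 and 525.1. The groups were thus apart, but the lowest Sorafenib library lay close to the DMSO range. The acute phase sum, led by SERPINA1, overlapped between treatments in M222 and M512. The carriers and chains, led by AHSG, had the largest sum of the classes. They were at 2184 ± 90.6 and 2103 ± 109 CPM in MC and at 2282 ± 160 and 2116 ± 74.0 in M222, with overlap in both. In M512 they were at 2950 ± 316 CPM with DMSO and 2145 ± 251 with Sorafenib, with no overlap. The sums are dominated by their highest members, and no test was made on them.

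**Figure D5:**
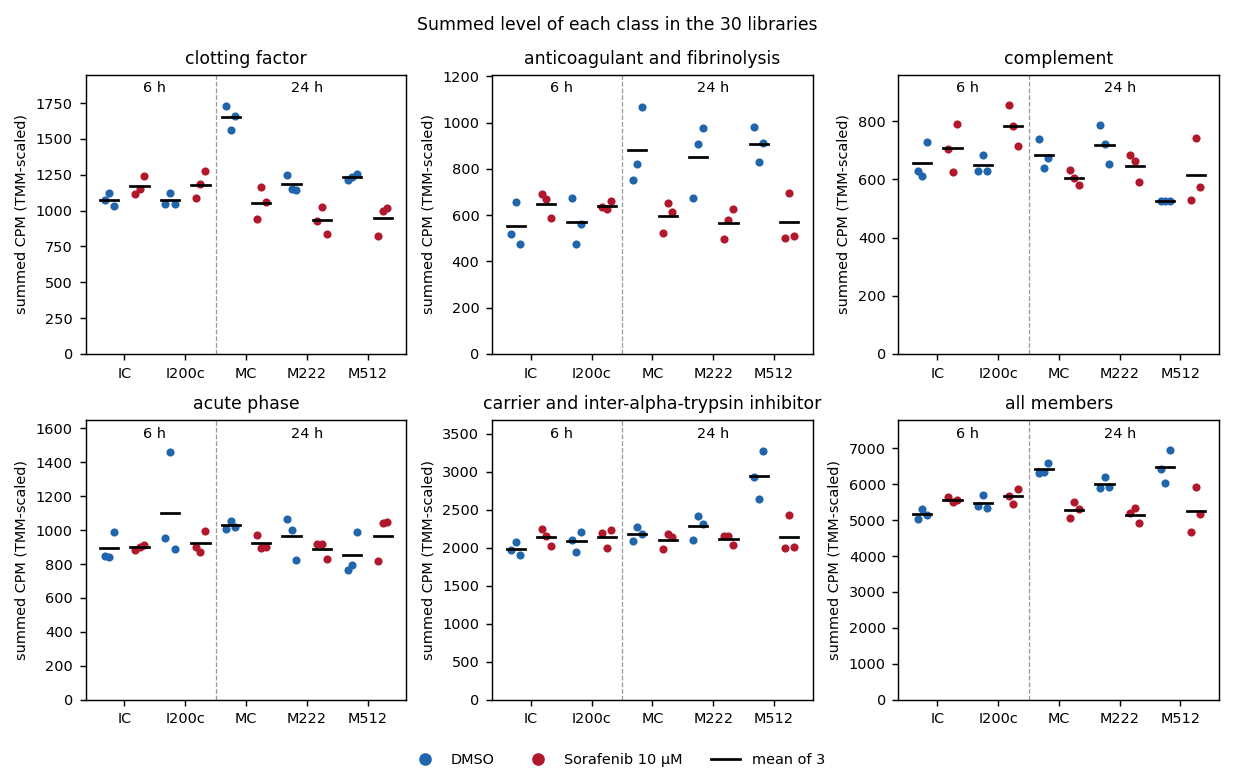
Summed level (TMM-scaled CPM) of each class and of all 48 members in each of the 30 libraries by transfection, with DMSO in blue, Sorafenib in red and a line at the mean of 3. For the clotting factors at 24 h all red points of a transfection lie below its blue ones, with means of 1056, 932 and 947 CPM against 1650, 1183 and 1234. In M512 the complement sum is at 528.0 to 743.2 CPM in red and 524.8 to 526.2 in blue, and the acute phase sum overlaps.

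Other plasma proteins and the genes upstream were described by lists. Of 52 other plasma protein genes, 35 were tested at 24 h, and over the mean 12 were lower and 3 higher, with a median of -0.57, where 12.4% of all genes were lower and 13.4% higher. SERPINA6, the cortisol carrier, was at -1.66, A2M, the broad protease trap alpha-2-macroglobulin, at -0.63 and ALB at -0.35. HAMP, the iron hormone hepcidin and itself an acute phase product, was called higher (log2 fold change 1.41, SE 0.13, edgeR adjusted p 4.05e-08), from 139 ± 33.0 to 283 ± 74.4 CPM in MC.

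Of 18 genes of interleukin signalling to acute phase genes, all were tested, and 5 were higher and 4 lower, with a median of 0.05, beside the same shares of all genes. NFKBIA, the inhibitor of NF-kappaB and its target, rose (log2 fold change 2.32, SE 0.18, edgeR adjusted p 2.58e-09), as did the acute phase transcription factor CEBPB (log2 fold change 1.95, SE 0.20, edgeR adjusted p 1.34e-07), JAK2 and CEBPD. HNF4A, which drives hepatocyte genes, fell (log2 fold change -0.999, SE 0.12, edgeR adjusted p 2.4e-06), as did CEBPA and the receptor chains IL1R1 and IL1RAP. STAT3, which carries the interleukin 6 signal, was at 0.15 (edgeR adjusted p 0.306). Of 9 genes for the vitamin K cycle and secretion, FURIN, a protease that matures proproteins, was called higher (0.96) and the other 8 were not called. Over the mean of 6 h, 1 of the 33 other plasma protein genes tested was called higher and 1 lower. Of the 18 interleukin signalling genes 2 were called higher. NFKBIA (1.12), CEBPA (0.43) and HAMP (0.50) were the higher ones. Over all 12738 genes, 147 were called higher (1.15%) and 221 lower. Of the 9 vitamin K and secretion genes edgeR called 0 at 6 h. There 2 had an unadjusted p under 0.05, beside 1962 of all genes.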

How the data were processed

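HepG2 libraries (QuantSeq 3′ mRNA-Seq FWD) were measured in 30 samples. Raw counts per gene, deposited by the authors, were used. Behind them stand FASTQ generation with DRAGEN, quality and adapter trimming, STAR alignment on GRCh38 and HTSeq-count. The submitters' table of normalised values and their own DESeq2 results were not used. The annotation release and the counting options for strand and UMIs are not given in the sources used here. From the deposited counts, 92 lines that name no gene (3 counts) were left out. The edgeR quasi-likelihood F test (edgeR 4.0.16, R 4.3.3) was run two-sided with TMM scaling, filterByExpr by group and 1 coefficient per group, on the 12 libraries of 6 h, the 18 of 24 h and the 12 of the controls IC and MC. P-values were Benjamini-Hochberg adjusted over all genes (12738, 13244 and 12500) and called under 0.05. An SE is the absolute log2 fold change divided by the root of F. Groups came from the labels. The total count was 3938764 to 9657063 per library, and limits for a count of 0 cover counting error only, as molecular identifiers are not stated. Alternatives were DESeq2 1.42.0, library totals, relative log expression, no filter on low counts, the replicate number as a block, and each library left out. The 24 h fit was tested on simulated data for Sorafenib against DMSO in MC only, and the other fits and contrasts were not. Tables and plots used Python 3.11.15, pandas 2.3.3 and matplotlib 3.10.9. The members and lists were chosen with earlier results of these data known. The text names every member called in a main contrast, those the study names, and the highest of each class. The values of 1 gene of the wider lists are not reported here.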

Additional observations from a re-analysis of the deposited data

Results flagged for a closer look

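The response of FGA to Sorafenib differed between 24 h in MC and 6 h in IC, by an interaction of -1.64 on the log2 scale (SE 0.26, edgeR adjusted p 0.024). It was flagged because the difference between the times was itself tested and called. Over the 12 fits that left out a library the value ran from -1.85 to -1.47, and the call was lost in 8. The time and the kind of control oligonucleotide cannot be told apart.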

How the results depend on the processing

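At 24 h the median of the members stayed below 0 in every alternative run, and no result reversed. The count over the mean of 24 h was 18 to 21 with a library left out. DESeq2 called 2 members in I200c, 2 over the mean of 6 h, 12 in MC, 2 for M222 against MC with DMSO, 11 for 24 h against 6 h with DMSO and 6 for time by Sorafenib. Its calls over all genes also rose, to 541, 550, 729, 33, 442 and 259 in the same order. The edgeR fits called 291, 368, 344, 0, 66 and 27 of all genes. Library totals gave 0 in I200c (296 over all genes), 0 over the mean of 6 h (376) and a median of -0.60 in M512 (-0.22 over all genes). No filter on low counts gave 0 over the mean of 6 h, 8 in MC, 1 for M512 against MC with DMSO, 9 for 24 h against 6 h and 8 for time by Sorafenib. Over all genes it called 547, 684, 292, 573 and 386 in the same order. The replicate number as a block gave 8 in MC, where it called 470 of all genes against 344 without it. Of all genes the block called 748 against 580 in M222 and 1520 against 1319 in M512. It called fewer for 24 h against 6 h (60 against 66) and for time by Sorafenib (11 against 27). It left the other counts of members within 1.5 times. Same-numbered libraries correlated at -0.1108 to 0.2192 in their deviations, and differently numbered ones at -0.1724 to 0.1431. Whether the numbers mark pairs or batches was not tested further. With a library left out, counts ranged from 0 to 1 in I200c, over the mean of 6 h, and for M222 against MC with Sorafenib and M512 against MC with either treatment. They ranged from 1 to 7 in MC and in M222, 4 to 8 in M512, 0 to 7 for 24 h against 6 h and 0 to 5 for time by Sorafenib, and the median in M222 from -0.49 to -0.19. Of the 49 calls of single genes, library totals lost 4 and no filter lost 6. DESeq2, relative log expression and the block lost 0 of the 49. The cause of these shifts was not tested. Some libraries held ITIH1, KNG1 and F7 at a few CPM or less, where counting error is large. Calls of well counted genes were also lost with a library left out, as for AHSG in M512 (5 of 6 fits).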
